A study of Rattus norvegicus with 15 samples.

Results

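Oligodendrocyte precursor and early lineage genes were described in dorsal CA1, the output field of the hippocampus, of rats given siRNA and trained in contextual fear conditioning. The 10 genes were chosen by name as markers of the precursor cell and of its first steps towards myelin: Pdgfra, Cspg4, Vcan, Ptprz1, Olig1, Olig2, Sox10, Gpr17, Bcas1 and Neu4. Of these 10, 9 had a row under that symbol among the 22314 genes of the count table and all 9 were among the 14880 genes that passed the filter on low counts, with at least 319 reads each in every library; Neu4 was not analysed here. Libraries came from frozen dorsal CA1 holding all brain cell types, from wild-type male Sprague-Dawley rats 8 to 9 weeks old. There were 3 groups of 5. Trained rats with Accell siRNA against Rnf20, a chemically modified siRNA that enters cells without a carrier, gave replicates 4, 8, 14, 18 and 20, called Rnf20-labelled libraries. Trained rats with scrambled siRNA gave replicates 5, 6, 10, 15 and 16, called scrambled trained libraries. Naive rats with scrambled siRNA gave replicates 1, 2, 9, 11 and 12, called naive libraries. Every group thus carried an injected siRNA, and no naive group with Rnf20 siRNA was among the samples. Training took place 5 days after injection; the time from training to dissection is not in the labels. Whether each library was its own animal is not stated, and p-values therefore reflect only how much these libraries varied, which may be technical.

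Oligodendrocyte precursor cells divide and migrate through the adult brain and give rise to the cells that wrap axons in myelin. They are held in the precursor state by platelet-derived growth factor acting on its alpha receptor, and they carry chondroitin sulphate proteoglycans on their surface. Olig1, Olig2 and Sox10 are transcription factors kept from the precursor to the myelinating cell, while Gpr17 and Bcas1 mark cells that have left the cycle and are about to make myelin. Precursors persist in the adult hippocampus, and new oligodendrocytes have been linked to memory in rodents.

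Upstream sequences are shown for Olig2 and Vcan, 2 members whose transcripts correlated over the 15 libraries, and for Pdgfra, which did not pass that test with either. The size of the correlation of Olig2 with Vcan rested on 4 of the libraries, as given below. The RefSeq promoter table of the rat assembly GRCr8 matched 6 of the 10 listed genes; Olig1, Sox10, Bcas1 and Ptprz1 had no entry. Each line gives the 250 bases before the annotated start, 5′ to 3′ on the gene's strand. Capitals mark an E-box, the CANNTG core that helix-loop-helix factors such as Olig2 recognise, or a TATAAA box, on either strand. Vcan has 2 starts in the table and the upstream one is shown.
Olig2, GRCr8 chr11:43961335-43961584, plus strand: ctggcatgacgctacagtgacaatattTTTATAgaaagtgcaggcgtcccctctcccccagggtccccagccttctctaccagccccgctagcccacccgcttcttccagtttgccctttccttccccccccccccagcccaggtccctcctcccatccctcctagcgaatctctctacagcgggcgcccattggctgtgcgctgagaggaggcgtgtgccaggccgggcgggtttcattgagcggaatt
Vcan, GRCr8 chr2:22595956-22596205, minus strand: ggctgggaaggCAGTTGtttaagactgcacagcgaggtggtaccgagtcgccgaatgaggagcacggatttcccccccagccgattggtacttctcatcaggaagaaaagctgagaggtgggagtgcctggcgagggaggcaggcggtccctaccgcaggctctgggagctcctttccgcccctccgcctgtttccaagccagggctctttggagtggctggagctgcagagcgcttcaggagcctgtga
Pdgfra, GRCr8 chr14:33408517-33408766, minus strand: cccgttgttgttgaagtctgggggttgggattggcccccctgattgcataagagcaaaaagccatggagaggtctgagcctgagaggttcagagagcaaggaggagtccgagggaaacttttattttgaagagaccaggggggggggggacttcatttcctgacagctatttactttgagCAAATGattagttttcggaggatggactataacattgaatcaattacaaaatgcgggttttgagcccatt
The window of Olig2 held 1 match to TATAAA, read on the opposite strand, and 0 to CANNTG. The windows of Vcan and Pdgfra held 1 match to CANNTG each, CAGTTG and CAAATG. Of 33360 distinct windows of this length in the table, 65.5% held CANNTG and 12.9% held TATAAA, and the 2 motifs do not overlap in the windows shown. The windows of Olig2 and Vcan had a GC content of 62.0% and 61.6%, and that of Pdgfra 47.2%.

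Total counts were 12537250 to 18458527 in Rnf20-labelled, 15342480 to 20644425 in scrambled trained and 14249375 to 17046535 in naive libraries. Rnf20, which encodes a ubiquitin ligase subunit for histone H2B, checks the siRNA label: it was at 38.3 to 44.6, 36.4 to 48.5 and 39.1 to 44.7 CPM (read counts scaled to a common library size by TMM) in those groups, in that order. These ranges overlap and no lower level is seen under the label, so the name Rnf20-labelled refers to the label alone. Rnf20-labelled replicates 14 and 18 and scrambled trained replicates 10 and 15 stood apart on the main axis of variation in earlier results of these data, and scrambled trained replicates 5 and 16 and Rnf20-labelled replicate 20 nearly lacked choroid plexus transcripts. The choroid plexus score, a mean log2 CPM over 11 markers, was at most 1.02 in these 3 libraries and 3.48 to 6.07 in the other 12. Values without one or the other set are given beside some of the results and in the closing part.

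No member passed the test between any groups. After training under scrambled siRNA the precursor receptor Pdgfra and the premyelinating receptor Gpr17 had estimated differences from naive libraries of -13.4% and -25.4%, and neither passed the test. The estimates for the 3 lineage factors were -8.07% for Olig1, -3.23% for Olig2 and -10.7% for Sox10, also without passing. Under the Rnf20 label the estimates for 8 of the 9 genes lay within 0.11 of 0 on the log2 scale relative to scrambled trained libraries, and that for Gpr17 was 0.17. Leaving out the 4 libraries that stood apart on the main axis, the estimates were 0.67 for Gpr17, 0.36 for Bcas1 and 0.35 for Vcan. They were 0.34 for Olig2, 0.28 for Sox10, 0.23 for Olig1, 0.02 for Pdgfra and -0.18 for Ptprz1. The smallest edgeR adjusted p among the members was then 0.700. Without the 3 libraries that nearly lacked choroid plexus transcripts the estimates were instead -0.178 for Gpr17, 0.003 for Bcas1 and -0.24 for Vcan. They were -0.117 for Olig2, -0.101 for Sox10 and 0.014 for Olig1. The test was edgeR's quasi-likelihood test over all 14880 genes with Benjamini-Hochberg adjustment and a threshold of adjusted p under 0.05.

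Pdgfra, the receptor through which platelet-derived growth factor keeps precursors dividing, varied within groups about as much as other genes of like abundance. It was at 80.9, 89.3, 91.5, 81.0 and 62.0 CPM in Rnf20-labelled libraries, at 64.0, 89.7, 83.0, 89.4 and 74.2 CPM in scrambled trained libraries, and at 92.0, 101.8, 83.7, 98.3 and 86.6 CPM in naive libraries. The lowest 3 values of all, 62.0, 64.0 and 74.2 CPM, belonged to trained libraries, while the trained values of 80.9 to 91.5 CPM overlapped the naive range. The log2 fold change was -0.21 in scrambled trained against naive libraries (SE 0.11; 95% interval -0.45 to 0.03; edgeR adjusted p = 0.554, unadjusted 0.0824) and -0.19 in Rnf20-labelled against naive libraries (SE 0.11; 95% interval -0.43 to 0.04; adjusted p = 1.00, unadjusted 0.105). These were the smallest p-values of any member in those 2 comparisons. The 3 lowest libraries were the 3 that nearly lacked choroid plexus transcripts; without them the fold changes were -0.08 and -0.11. Over all 15 libraries Pdgfra had a correlation with the choroid plexus score of r = 0.72 (permutation p = 0.00485, adjusted p = 0.0296 over 171 relations of members with list scores) and rho = 0.22 (permutation p = 0.423, adjusted p = 0.640). The 3 libraries form a separate cluster, and within the other 12 the sign was opposite, at r = -0.44 (permutation p = 0.147) and rho = -0.50 (p = 0.0996), and r = -0.48 without the 2 libraries farthest from the median score. Choroid plexus transcripts mark plexus tissue held in a dissection, and its part in the Pdgfra values was not tested. In bulk tissue, fewer cells of a type and less RNA per cell cannot be told apart.

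Cspg4, the NG2 proteoglycan by which precursors are stained, varied least of the 9. It was at 23.5, 30.1, 26.6, 29.9 and 32.6 CPM in Rnf20-labelled libraries, at 28.1, 31.8, 26.3, 34.4 and 32.9 CPM in scrambled trained libraries, and at 30.1, 29.9, 23.4, 29.2 and 24.2 CPM in naive libraries. The groups overlapped over most of their range, although 3 scrambled trained libraries exceeded every naive one. The log2 fold change of scrambled trained over naive libraries was 0.17 (95% interval -0.06 to 0.40; adjusted p = 0.634), and that of Rnf20-labelled over scrambled trained libraries -0.11 (-0.33 to 0.12; adjusted p = 0.879, edgeR).

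Vcan encodes versican, a large matrix proteoglycan made by precursors and also by activated myeloid cells. It was at 44.4, 76.2, 43.8, 99.0 and 77.8 CPM in Rnf20-labelled libraries, at 46.5, 57.3, 84.0, 92.1 and 51.0 CPM in scrambled trained libraries, and at 57.4, 57.1, 49.4, 71.4 and 59.8 CPM in naive libraries. The trained libraries lay on both sides of the naive range: 5 of the 10 were above the highest naive value and 3 below the lowest. The log2 fold change was 0.17 in scrambled trained over naive libraries (95% interval -0.33 to 0.66; edgeR adjusted p = 0.843) and 0.04 in Rnf20-labelled over scrambled trained libraries (-0.45 to 0.54; adjusted p = 0.979). In Rnf20-labelled over naive libraries it was 0.21 (-0.29 to 0.71; edgeR adjusted p = 1.00). Without the 4 libraries that stood apart on the main axis the fold change of scrambled trained over naive libraries was -0.19. Without the 3 that nearly lacked choroid plexus transcripts it was 0.40.

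Ptprz1 encodes a receptor phosphatase that binds pleiotrophin and is carried by precursors and by astrocytes. It was at 342, 395, 428, 359 and 328 CPM in Rnf20-labelled libraries, at 426, 465, 313, 414 and 313 CPM in scrambled trained libraries, and at 373, 319, 308, 366 and 387 CPM in naive libraries. The scrambled trained libraries split, with 3 above every naive value and 2 near the naive minimum. The log2 fold change of scrambled trained over naive libraries was 0.14 (95% interval -0.12 to 0.40; edgeR adjusted p = 0.732).

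The lineage factors followed each other from library to library and not the groups. Olig2, which specifies the lineage, was at 48.1, 51.2, 33.8, 52.7 and 41.7 CPM in Rnf20-labelled libraries, at 35.7, 35.0, 57.4, 58.7 and 40.4 CPM in scrambled trained libraries, and at 49.95, 46.5, 46.5, 52.2 and 39.7 CPM in naive libraries. Sox10, which drives myelin genes with Olig2, was at 95.03, 87.5, 62.7, 114.6 and 86.9 CPM in Rnf20-labelled libraries, at 66.0, 69.0, 108.2, 112.4 and 85.5 CPM in scrambled trained libraries, and at 103.4, 105.7, 94.4, 109.6 and 81.1 CPM in naive libraries. In both genes Rnf20-labelled replicate 14 and scrambled trained replicates 5 and 6 were the lowest 3 of the 15, and the trained groups spanned the naive range. Olig1, the partner of Olig2 in maturation and myelin repair, was at 181, 169, 140.4, 178 and 162 CPM in Rnf20-labelled libraries, at 124, 133, 188, 176 and 178 CPM in scrambled trained libraries, and at 163, 184, 188, 201 and 131 CPM in naive libraries. Scrambled trained replicate 5 and naive replicate 12 were its lowest libraries, so that its groups overlapped too. In scrambled trained over naive libraries the log2 fold changes were -0.12 for Olig1, -0.05 for Olig2 and -0.16 for Sox10, with edgeR adjusted p-values of 0.789, 0.941 and 0.771. In Rnf20-labelled over scrambled trained libraries they were 0.06, 0.00 and 0.02, with 95% intervals of -0.23 to 0.34, -0.34 to 0.34 and -0.34 to 0.37 (edgeR adjusted p = 0.950, 1.00 and 0.986). Without the 4 libraries that stood apart on the main axis the log2 fold changes of scrambled trained over naive libraries were -0.25 for Olig1, -0.34 for Olig2 and -0.42 for Sox10 (edgeR adjusted p = 0.630, 0.325 and 0.277). The scrambled trained libraries then left were replicates 5, 6 and 16. Without the 3 libraries that nearly lacked choroid plexus transcripts the same fold changes were -0.069, 0.101 and -0.035.

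Gpr17, a receptor that peaks in committed precursors and must decline before myelin is made, had the widest relative spread. It was at 37.0, 50.4, 32.7, 36.8 and 49.6 CPM in Rnf20-labelled libraries, at 29.1, 35.1, 33.4, 64.3 and 21.4 CPM in scrambled trained libraries, and at 40.4, 41.7, 34.1, 78.2 and 51.7 CPM in naive libraries. A single high library in each scrambled siRNA group, trained replicate 15 and naive replicate 11, lay above all 13 others, which shared 21.4 to 51.7 CPM. The log2 fold change of scrambled trained over naive libraries was -0.42 (SE 0.27; 95% interval -0.99 to 0.15; edgeR adjusted p = 0.624), and that of Rnf20-labelled over naive libraries -0.25 (SE 0.27; -0.82 to 0.31; adjusted p = 1.00). Single libraries moved both: the first was -0.72 without scrambled trained replicate 15 and -0.19 without naive replicate 11, and the second was -0.02 without naive replicate 11. Once the 4 libraries on the main axis were left out, the first was -0.78 and the second -0.11. Once the 3 that nearly lacked choroid plexus transcripts were left out instead, the first was -0.15 and the second -0.33. Gpr17 lies within the span of Lims2 on the opposite strand in RefSeq GRCr8, and the strand setting of the counting is not given in the sources used here, so that reads of the 2 genes may not be fully separated.

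Bcas1, a myelin-associated protein that appears in cells starting to make myelin and stays in part of the mature sheath, also spread widely. It was at 595, 714, 356, 891 and 519.5 CPM in Rnf20-labelled libraries, at 457, 363, 835, 716 and 598 CPM in scrambled trained libraries, and at 571, 580.2, 682, 795 and 464 CPM in naive libraries. The highest and the lowest library of all were both Rnf20-labelled, replicates 18 and 14, and the group means were close, at 615 ± 202, 594 ± 190.4 and 618 ± 125 CPM (SD, n = 5 each) in Rnf20-labelled, scrambled trained and naive libraries. The log2 fold change was 0.05 in Rnf20-labelled over scrambled trained libraries and -0.06 in scrambled trained over naive libraries, with 95% intervals of -0.47 to 0.58 and -0.58 to 0.47. These were 0.36 and -0.38 without the 4 libraries on the main axis, which include both extremes (edgeR adjusted p = 0.721 and 0.578). Without the 3 libraries that nearly lacked choroid plexus transcripts the same fold changes were 0.003 and 0.044.

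**Figure D1:**
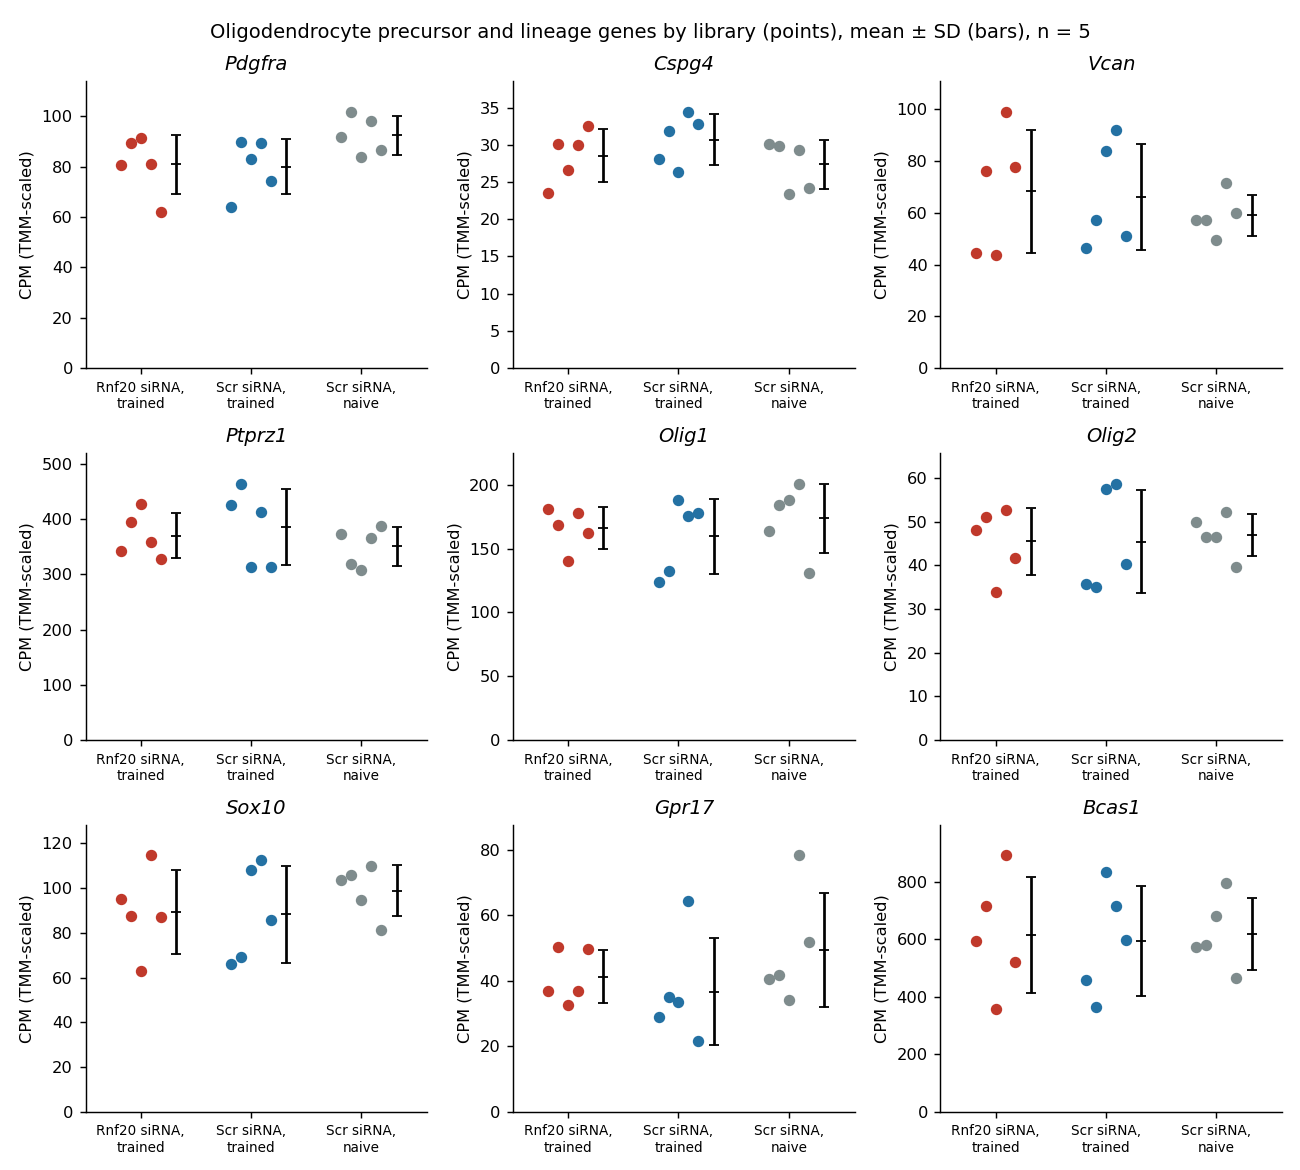
CPM of the 9 genes (y axis, from 0) in each library (points) by group, with the mean ± SD over 5 libraries as bars. The groups overlap in every gene; Gpr17, Bcas1 and Vcan show the widest spread and Cspg4 the narrowest.

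Counted over the members, 0 of 9 passed the threshold in scrambled trained against naive libraries, where 0% of all genes tested passed. In Rnf20-labelled against scrambled trained libraries, in Rnf20-labelled against naive libraries and among the 3 groups by the F test, 0 of 9 passed in each, again against 0% of all genes. At an unadjusted p under 0.05 the members counted 0 of 9 in each, where 9.97% of all genes were counted in scrambled trained against naive libraries, 5.61% in Rnf20-labelled against scrambled trained, 2.30% in Rnf20-labelled against naive and 6.44% by the F test. With DESeq2 and limma-voom 0 members passed the adjusted threshold in any comparison. Also, 0 members had groups that did not overlap in CPM, against 1.75%, 0.659% and 0.497% of all genes in the 3 comparisons in the order above. The 3 comparisons share libraries and are not independent of each other.

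In scrambled trained against naive libraries 3 members had a fold change above 0 (Cspg4, Vcan and Ptprz1) and 6 below, with a median log2 fold change of -0.06 beside -0.01 over all genes, of which 52.8% were below 0. In Rnf20-labelled against scrambled trained libraries 7 were above 0 and 2 below, with a median of 0.02 beside 0.00 over all genes. In Rnf20-labelled against naive libraries 3 were above 0 and 6 below, with a median of -0.05 beside 0.00. The 95% intervals show what these libraries can resolve. Between the trained groups they reached from -20.7% to 8.96% for Cspg4 and from -14.3% to 19.2% for Pdgfra, but from -24.3% to 66.7% for Gpr17 and from -28.0% to 49.0% for Bcas1.

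**Figure D2:**
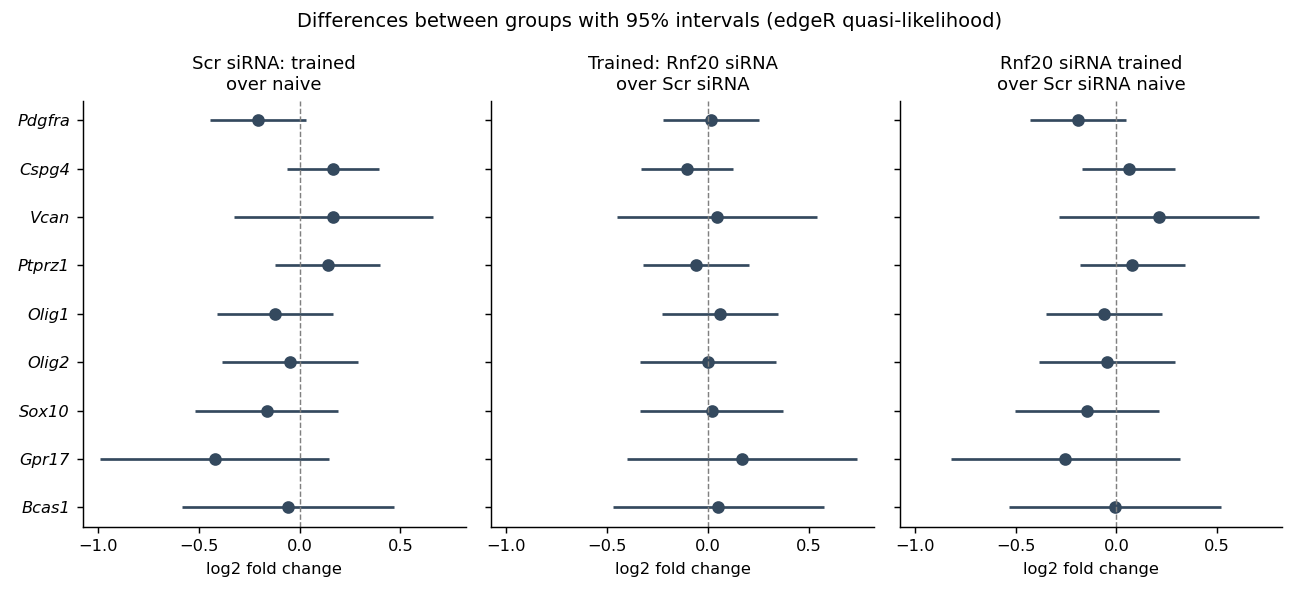
Log2 fold changes of the 9 genes (points) with 95% intervals from edgeR's quasi-likelihood fit (lines) in the 3 comparisons. Every interval includes 0, and the intervals of Gpr17, Bcas1 and Vcan are the widest.

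The spread between libraries of a group was far above counting error in every member. Pooled over the groups, the coefficient of variation in CPM was 34.8% for Gpr17, 28.9% for Bcas1 and 28.1% for Vcan, where read counting alone gives 4.00%, 1.05% and 3.22%. It was 19.7% for Sox10, 18.8% for Olig2, 15.1% for Olig1, 13.4% for Ptprz1, 12.4% for Pdgfra and 11.8% for Cspg4. The median over the 6067 genes of like abundance was 11.5% (quartiles 8.30% and 16.5%). Gpr17, Bcas1, Vcan, Sox10 and Olig2 thus lay above the upper quartile, and the highest library exceeded the lowest by a ratio of 3.65 for Gpr17, 2.51 for Bcas1 and 2.26 for Vcan.

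Across the 15 libraries Olig1, Olig2, Sox10 and Bcas1 varied as 1 block. The 6 pairs among them had Pearson's r of 0.79 to 0.93 and Spearman's rho of 0.66 to 0.92 (log2 CPM; permutation test with 100000 resamples, Benjamini-Hochberg over 36 member pairs; adjusted p at most 0.00336 for r and 0.0388 for rho). Olig2 and Sox10 were closest, at r = 0.93 and rho = 0.92. With group means removed the 6 values were 0.79 to 0.94, and without the 2 libraries farthest from the median they were 0.75 to 0.88, so that the block was present within groups. They were 0.77 to 0.89 over the 11 libraries left without the 4 on the main axis and 0.81 to 0.93 over the 12 left without the 3 of lowest choroid plexus score. Of all 36 pairs, 10 passed for r.

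Vcan joined the block in part. Its r was 0.68 with Olig2, 0.65 with Bcas1 and 0.63 with Sox10 (rho 0.70, 0.63 and 0.65; permutation p = 0.0065, 0.00887 and 0.0126, adjusted p = 0.0292, 0.0355 and 0.0454). Without the 2 libraries farthest from the Vcan median these were 0.57, 0.53 and 0.49, with permutation p = 0.0415, 0.061 and 0.0902 before adjustment, and with group means removed they were 0.68 to 0.73 over the 15. Over the 11 libraries without the 4 on the main axis they were 0.31, 0.24 and 0.23, so that their size rested on those 4. These are the 3 libraries of highest Vcan and the 1 of lowest, and leaving out extremes by itself tends to lower r. Ptprz1 ran against Olig1, at r = -0.72 and rho = -0.70 (permutation p = 0.00256 and 0.00445, adjusted p = 0.0132 and 0.0238), and at r = -0.63 without the 2 farthest libraries. Its r with Olig2, Sox10 and Bcas1 was -0.41 to -0.55 and did not pass. The surface markers Pdgfra and Cspg4 stood outside the block: r with the other members was -0.07 to 0.39 for Pdgfra and -0.07 to 0.47 for Cspg4, with smallest adjusted p-values of 0.296 and 0.191 by permutation, and r between the 2 genes was -0.07. Gpr17 passed with no other member, at r = 0.46 with Olig2 (permutation p = 0.0794, adjusted p = 0.191) and 0.29 with Bcas1.

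Scores of other gene lists, each the mean log2 CPM of the tested genes other than the members, were then set against the 9 genes, in 171 relations over 19 lists. The block correlated with mature myelin genes and, apart from Olig1, with growth factors and receptors that act on precursors. The score of 24 myelinating oligodendrocyte genes correlated with Olig1 at r = 0.89, Sox10 at 0.89, Bcas1 at 0.85 and Olig2 at 0.82 (adjusted permutation p = 0.00171, 0.00171, 0.00342 and 0.00547 over the 171; rho 0.89, 0.73, 0.70 and 0.63, adjusted p = 0.00684, 0.0269, 0.0373 and 0.0684). These 4 values of r were 0.82 to 0.93 without the 4 libraries on the main axis. The score of 23 growth factors and receptors had r = 0.85 with Olig2, above its value with the myelin score, 0.78 with Sox10, 0.76 with Bcas1 and 0.49 with Olig1 (adjusted permutation p = 0.00385, 0.00694, 0.0102 and 0.181), and 0.73, 0.58, 0.42 and 0.32 without those 4 libraries. All 4 genes also passed with the further lineage transcription factors, at r = 0.73 to 0.80 (adjusted permutation p at most 0.018). The score of pericytes, fibroblasts and other Pdgfra or Cspg4 cells passed with Bcas1 (r = 0.68, adjusted permutation p = 0.0294) and Olig2 (0.65, 0.0436). It did not pass by rho, nor with Sox10 (0.61) or Olig1 (0.49). Ligands and interactors of Ptprz1, Vcan and Cspg4 passed with Olig2 (0.75, 0.0122) and Sox10 (0.67, 0.0386), not with Bcas1 (0.61) or Olig1 (0.26). The myelinating score correlated negatively with Ptprz1, at r = -0.81 and rho = -0.83 (adjusted permutation p = 0.00547 and 0.0109). Pdgfra and Cspg4 had r of 0.17 and -0.17 with it. With the score of other precursor markers they had r of 0.46 and 0.27 (permutation p = 0.0831 and 0.331, adjusted p = 0.212 and 0.560). For Pdgfra rho was 0.60 there and did not pass (permutation p = 0.0201, adjusted p = 0.0905). Ptprz1 and the astrocyte score had r = 0.58, which did not pass (permutation p = 0.0239, adjusted p = 0.0997).

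Relations of the block with neuronal transcripts were negative, and passed for some of its genes. The score of 12 pan-neuronal genes had r = -0.76 with Bcas1 and -0.70 with Olig2 (adjusted permutation p = 0.00999 and 0.0222), while its r of -0.63 with Sox10 and -0.48 with Olig1 did not pass (adjusted permutation p = 0.0558 and 0.181). With the 4 libraries on the main axis left out, the values for Bcas1, Olig2, Sox10 and Olig1 were -0.40, -0.20, -0.09 and -0.36. The score of 6 CA1 neuron genes had r = -0.77 with Bcas1, -0.73 with Olig2 and -0.66 with Olig1, and -0.63 with Sox10, which did not pass (adjusted permutation p = 0.00694, 0.0122, 0.0386 and 0.0539). Without the same 4 libraries these were -0.84, -0.77, -0.76 and -0.68. The summed level of the 12 pan-neuronal markers was 5904 to 10448 CPM in Rnf20-labelled, 5332 to 9057 CPM in scrambled trained and 7619 to 9169 CPM in naive libraries. The summed level of the 24 myelinating genes was 16400.0 to 27979, 14213 to 31641 and 18057 to 31196 CPM in the same groups. CPM values share a total, and how much white matter each dissection held was not tested as a source of these relations.

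Gpr17 passed with the lists of newly formed oligodendrocytes and of other precursor markers and with no other list. It correlated with the score of 15 newly formed and premyelinating oligodendrocyte genes at r = 0.83 and rho = 0.80, and with that of 23 other precursor markers at r = 0.84 and rho = 0.72 (permutation p = 0.00018 and 0.00017 for r, adjusted p = 0.00513 for both; 0.81 and 0.80 without the 2 farthest libraries). Its r with the myelinating score was 0.17. The newly formed score was not particular to Gpr17, since it also had r = 0.78 with Olig2 and 0.69 with Sox10 (adjusted permutation p = 0.00672 and 0.0278). The newly formed list holds Lims2, which shares its locus. Both scores were highest in the 2 libraries of highest Gpr17: for newly formed cells it reached 5.89 in scrambled trained replicate 15 and 5.76 in naive replicate 11, and at most 5.67 elsewhere.

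Vcan passed with 5 lists, among them microglia and reactive glia. Its r was 0.81 with the score of 14 microglia genes and 0.81 with that of 19 reactive glia genes (rho 0.77 and 0.78; adjusted permutation p = 0.00547 and 0.0056 for r, 0.0217 and 0.0196 for rho), and 0.89 and 0.92 with group means removed. Without the 2 farthest libraries the values were 0.72 and 0.73. Its r was as high with the growth factors that act on precursors, at 0.80, and with the ligands and interactors of Ptprz1, Vcan and Cspg4, at 0.80 (rho 0.73 and 0.86; adjusted permutation p = 0.00547 and 0.00672 for r), and it was -0.73 with the pan-neuronal score (adjusted permutation p = 0.0139). Without the 4 libraries on the main axis, r was 0.49 with microglia, 0.46 with reactive glia, 0.45 with growth factors, 0.60 with ligands and interactors and -0.04 with neurons. The microglia list shares Tyrobp and Trem2 with reactive glia and P2ry12 with growth factors, and the interactors share Lgals3 and Tnc with reactive glia. These scores are therefore not independent of each other. The 3 libraries of highest Vcan, Rnf20-labelled replicate 18 and scrambled trained replicates 15 and 10, were also the 3 of highest microglia score, at 6.77, 6.78 and 6.52, and the lowest Vcan library, Rnf20-labelled replicate 14, had the lowest, 5.33. The summed microglia level over all 14 markers was 817 to 2013 CPM in Rnf20-labelled, 1043 to 2151 CPM in scrambled trained and 927 to 1581 CPM in naive libraries. The part of myeloid cells in the Vcan values was not tested. Cspg4 and Bcas1 each had r = 0.61 with the reactive glia score, which did not pass (permutation p = 0.0149 and 0.0169, adjusted p = 0.0693 and 0.0760), and Pdgfra -0.07. With group means removed, r with reactive glia was 0.78 for Sox10, 0.78 for Bcas1, 0.73 for Olig2 and 0.54 for Olig1.

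**Figure D3:**
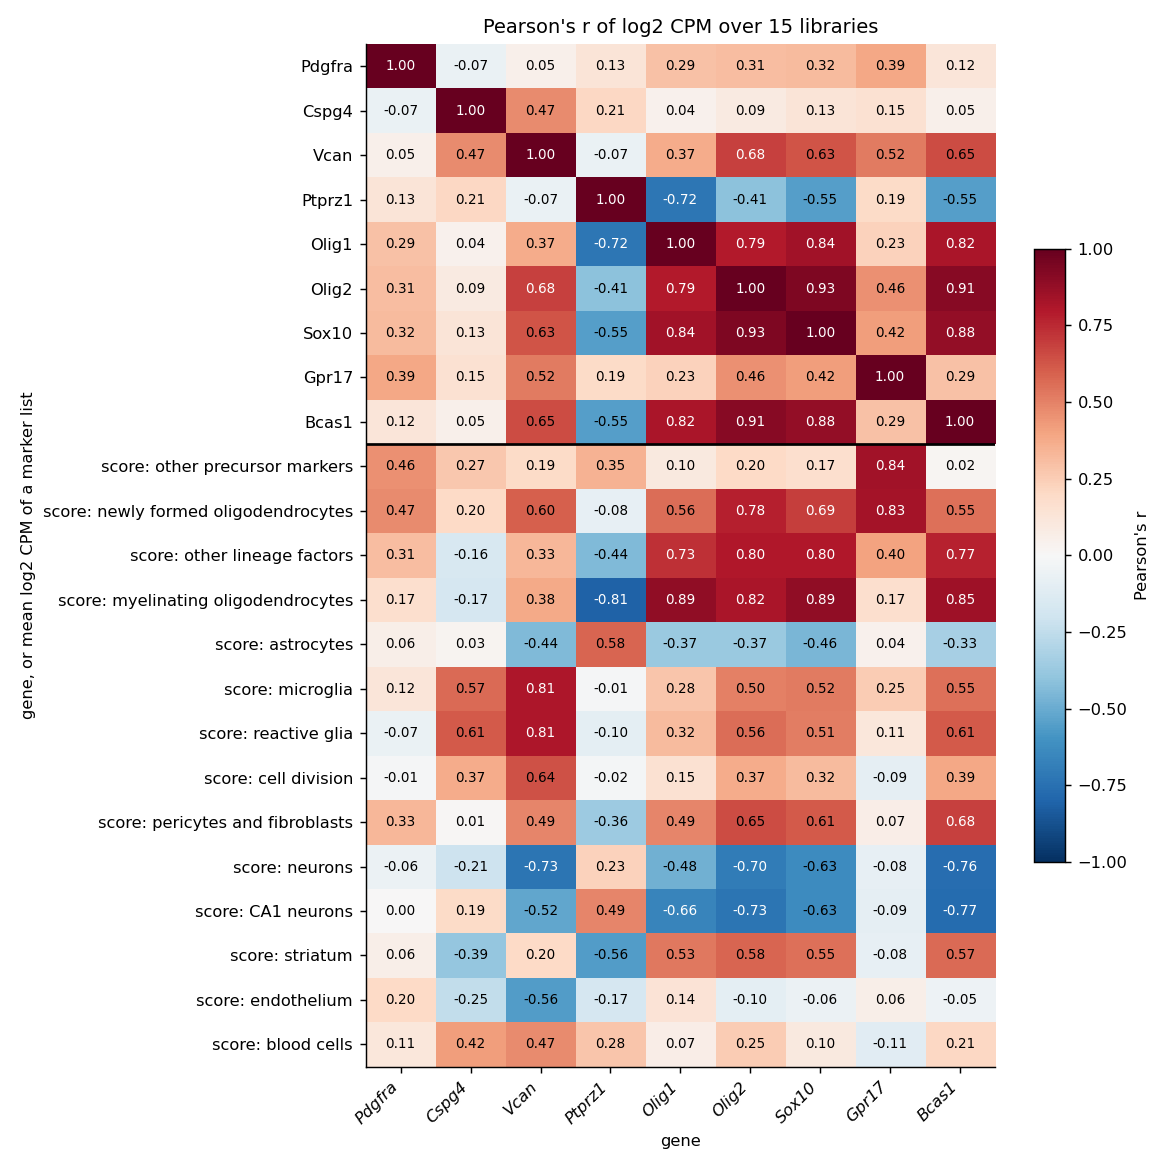
Pearson's r over 15 libraries, as colour and printed value, between the 9 genes (columns) and each other (upper rows) or the score of other gene lists (lower rows, mean log2 CPM of the list without the 9 genes). Olig1, Olig2, Sox10 and Bcas1 form a block that shares its high values with the myelinating score. Vcan has high values with microglia and reactive glia, and Gpr17 and Olig2 with newly formed oligodendrocytes. Pdgfra and Cspg4 have r of at most 0.39 and 0.47 with the other members. With other precursor markers their r is 0.46 and 0.27, and with newly formed oligodendrocytes 0.47 and 0.20. Lists of choroid plexus, growth factors, ligands and interactors, PDGF genes and neuroblasts are not drawn. Among those, r is 0.72 for Pdgfra with choroid plexus, and 0.85 for Olig2 and 0.80 for Vcan with growth factors. With ligands and interactors it is 0.80 for Vcan and 0.75 for Olig2.

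**Figure D4:**
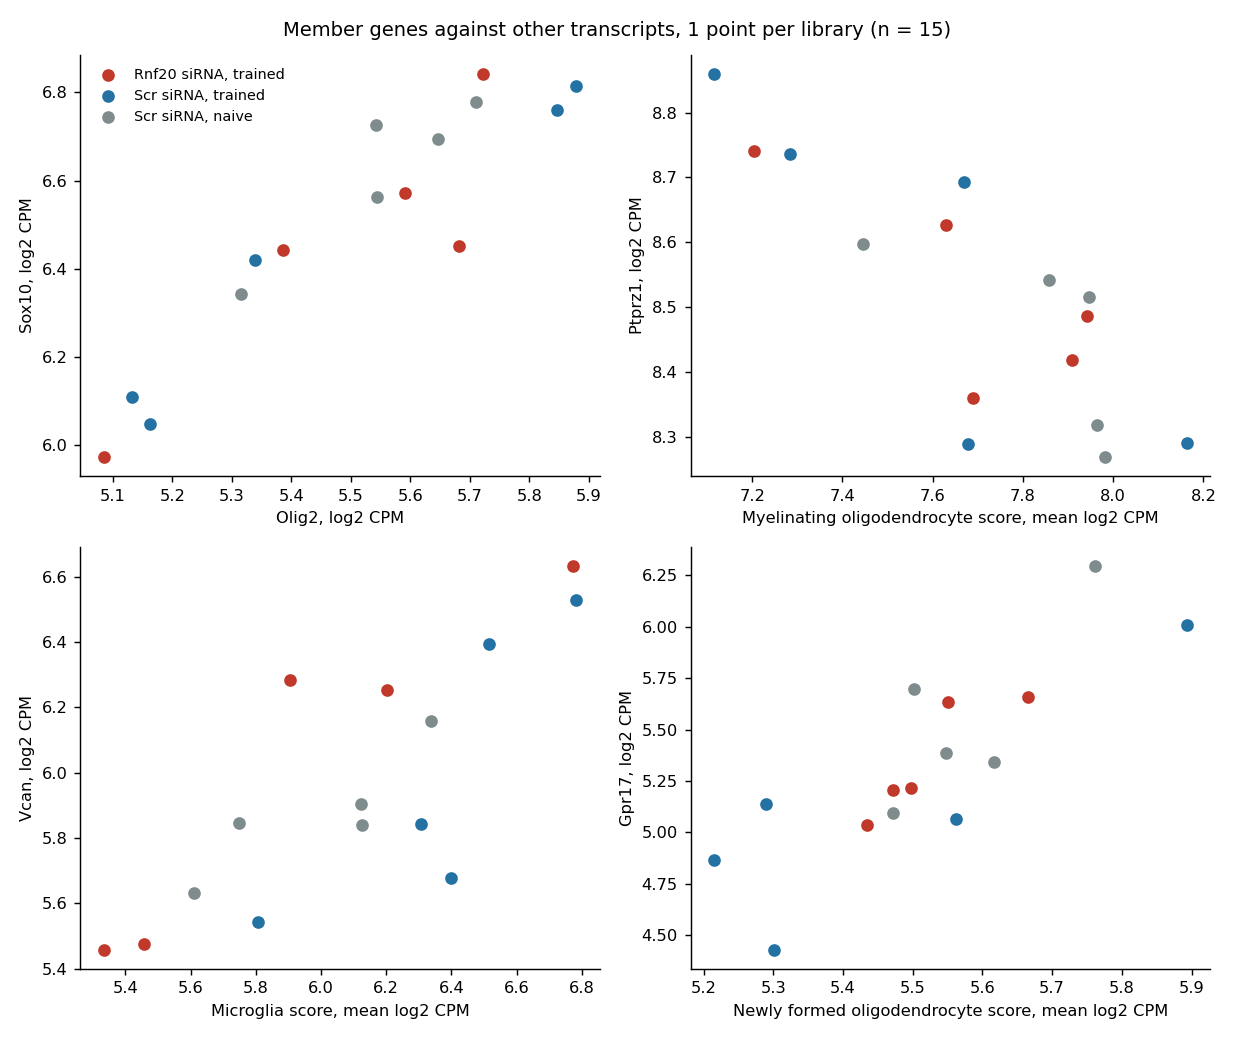
Each point is 1 library, coloured by group, on log2 CPM axes. Sox10 rises with Olig2 (r = 0.93), Ptprz1 falls with the myelinating oligodendrocyte score (r = -0.81), Vcan rises with the microglia score (r = 0.81) and Gpr17 with the newly formed oligodendrocyte score (r = 0.83), with libraries of all 3 groups along each trend.

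Other genes of the lineage, from lists drawn up around the members, gave 0 calls in any comparison at the adjusted threshold. In scrambled trained against naive libraries, 14 of 18 further lineage transcription factors had a fold change below 0 (median -0.19; 0 higher and 3 lower at an unadjusted p under 0.05), among them Sox5, a SoxD factor that restrains maturation (9.45 ± 1.84 against 12.9 ± 3.16 CPM; edgeR adjusted p = 0.443), and Id2, an inhibitor of differentiation (68.5 ± 12.0 against 81.9 ± 4.35 CPM; adjusted p = 0.451). Of 23 other precursor markers 18 were below 0 (median -0.09); the 2 of smallest p were the cyclin Ccnd1, at 77.3 ± 20.2 against 52.4 ± 6.22 CPM, and the protocadherin Pcdh15, at 5.39 ± 1.42 against 7.62 ± 1.72 CPM (edgeR adjusted p = 0.387 and 0.419). Within this list Pcdh15 had the smallest p between the trained groups, at 8.06 ± 1.20 CPM in Rnf20-labelled and 5.39 ± 1.42 CPM in scrambled trained libraries (edgeR adjusted p = 0.832).

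Of 24 myelinating genes 21 were below 0 after training (median -0.23), 6 of them at an unadjusted p under 0.05 beside 9.97% of all genes, and between the trained groups 16 were above 0 (median 0.08). Both medians moved with single libraries: the first was -0.11 to -0.42 when each library was left out in turn, and the second was -0.03 to 0.24. Without the 4 libraries that stood apart on the main axis they were -0.47, with 17 of 24 at an unadjusted p under 0.05, and 0.36. Opalin, a myelin membrane protein, was at 252 ± 42.3 CPM in Rnf20-labelled, 198 ± 52.1 CPM in scrambled trained and 324 ± 55.5 CPM in naive libraries; scrambled trained over naive gave a log2 fold change of -0.71 (SE 0.17; edgeR adjusted p = 0.379, unadjusted 0.000971). Of 15 newly formed oligodendrocyte genes 9 were below 0 (median -0.02, -0.28 without the same 4 libraries and 0.02 without the same 3). Gpr37, a receptor of maturing oligodendrocytes that stands in both lists, was at 163 ± 16.1 against 221 ± 33.4 CPM (edgeR adjusted p = 0.379).

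Of 5 further PDGF ligands and receptors, 2 had an unadjusted p under 0.05 in scrambled trained against naive libraries, both lower, beside 9.97% of all genes. They were Pdgfrb, the sister receptor on pericytes, at 29.1 ± 3.69 against 35.6 ± 4.26 CPM, and Pdgfd, a ligand of that receptor, at 3.47 ± 0.36 against 5.03 ± 1.34 CPM (edgeR adjusted p = 0.384 and 0.394, scrambled trained against naive). Among 21 ligands and interactors of Ptprz1, Vcan and Cspg4, 14 were below 0 (median -0.16), while the galectin Lgals3 was at 101.4 ± 77.3 against 18.6 ± 3.41 CPM and the proteoglycan Ncan at 301 ± 46.7 against 231 ± 39.0 CPM (edgeR adjusted p = 0.383 and 0.465). Of 23 growth factors and receptors that act on precursors, 10 were above 0 and 13 below (median -0.03), with 1 in each direction at an unadjusted p under 0.05.

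Genes of cell division, which cycling precursors share with other dividing cells, differed more than the members. All 16 were above 0 in scrambled trained against naive libraries (median 1.30), 14 at an unadjusted p under 0.05 beside 9.97% of all genes, and all 16 were below 0 in Rnf20-labelled against scrambled trained libraries (median -0.92), 12 at an unadjusted p under 0.05 beside 5.61% of all genes; 0 passed the adjusted threshold in either. Birc5, a mitotic inhibitor of apoptosis, was at 3.76 ± 1.37 CPM in Rnf20-labelled, 6.54 ± 2.24 CPM in scrambled trained and 2.77 ± 0.55 CPM in naive libraries. The division score correlated with none of the 9 members past the threshold: r was 0.64 with Vcan (permutation p = 0.0104, adjusted p = 0.0539), 0.37 with Cspg4 and -0.01 with Pdgfra. Reactive glia genes had the same signs as the division genes, with 18 of 19 above 0 after training (median 1.10) and 19 of 19 below 0 under the Rnf20 label relative to scrambled trained libraries (median -0.66). These signs of both medians held with each library left out in turn, although the division genes at an unadjusted p under 0.05 between the trained groups numbered 6 without scrambled trained replicate 10. The 4 blood cell genes also had those signs, among them the beta globin Hbb, at 136 ± 82.9 CPM in Rnf20-labelled, 274 ± 173 CPM in scrambled trained and 68.3 ± 16.3 CPM in naive libraries. The part of these cells in the division transcripts was not tested.

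By likeness of pattern alone, measured as Pearson's r of log2 CPM over the 15 libraries with group means removed and given with no test, the nearest genes to the mean of the 9 members were Csf1 and Itgb1, both at 0.95, and Bach1 at 0.94. Among the genes near Vcan were Syk at 0.96 and Dock8 at 0.95. Nearest to Gpr17 were Lims2 at 0.93 and Slc7a2 and Fyn at 0.89. Sox10 was nearest to Plxnb3 at 0.96, Olig2 and Bcas1 to Map4k4 at 0.94 and 0.97, Olig1 to Srpk3 at 0.94, and Ptprz1 to Tab3 and Cyfip1 at 0.92 and to the glutamate transporter Slc1a2 at 0.91. The likeness was lower for the 2 surface markers of precursors, with Kdm2b at 0.83 for Pdgfra and Cwc22 at 0.81 for Cspg4.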

How the data were processed

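Total RNA from dorsal CA1 was made into stranded poly(A) libraries with 14 PCR cycles, per the labels. Trim Galore, FastQC, featureCounts 2.0.1, DESeq2 and the build Rnor_6.0 are named in the submitters' processing notes; which aligner, annotation or strand setting applied is not given in the sources used here. Raw read counts per gene make up the deposited count table (per the file headers). A second deposited table of normalised signal equalled those counts over a size factor (0 values differed at a relative tolerance of 1e-06) and was not used further.

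Counts were fitted in R 4.3.3 with edgeR 4.0.16 (TMM, filterByExpr, robust quasi-likelihood test, all 15 libraries, 12 residual degrees of freedom). P-values were adjusted by Benjamini-Hochberg across 14880 genes, with a threshold of 0.05; the procedure was tested on simulated data. Alternatives used DESeq2 1.42.0 and limma 3.58.1, other scalings and filters, 2 groups only, and libraries left out. Correlations used log2 CPM with a prior count of 2. Gene lengths of this build were not used here, so no levels were compared between genes. All 9 members are named, with the 1 or 2 genes of smallest p per list; the results of the other lists stand in the closing part. One gene near a member in pattern is not reported here. The members and lists were chosen with earlier results of these data known.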

Additional observations from a re-analysis of the deposited data

How the results depend on the processing

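Under every alternative run, 0 of the 9 members passed the threshold in any comparison; the lowest adjusted p among 675 recomputed values was 0.277. Of those values 620 kept their sign and 55 changed it, all of them from differences that had not passed. Leaving out Rnf20-labelled replicates 14 and 18 and scrambled trained replicates 10 and 15 moved the median log2 fold change of the members to 0.28 in Rnf20-labelled against scrambled trained libraries and -0.276 in scrambled trained against naive libraries, gave Vcan -0.186 in scrambled trained against naive and Olig2 0.001 in Rnf20-labelled against naive libraries. Leaving out the 3 libraries of lowest choroid plexus score gave, in Rnf20-labelled against scrambled trained libraries, Gpr17 -0.178, Olig2 -0.117, Pdgfra -0.028, Sox10 -0.101 and Vcan -0.24, in scrambled trained against naive libraries Bcas1 0.044 and Olig2 0.101, and in Rnf20-labelled against naive libraries Bcas1 0.047. The median over the members was then -0.101 in Rnf20-labelled against scrambled trained libraries and 0.044 in scrambled trained against naive libraries. Quality weights in limma-voom gave Vcan -0.084 between the trained groups and Cspg4 -0.007 in Rnf20-labelled against naive libraries. Upper-quartile scaling gave Olig2 -0.01 and no filter on low counts -0.007 between the trained groups, and fitting only the 2 groups compared gave Bcas1 0.006 in Rnf20-labelled against naive libraries. Leaving out each library in turn gave, between the trained groups, ranges of -0.13 to 0.211 for Bcas1, -0.02 to 0.128 for Olig1, -0.081 to 0.114 for Olig2, -0.055 to 0.103 for Pdgfra, -0.127 to 0.016 for Ptprz1, -0.096 to 0.122 for Sox10 and -0.137 to 0.197 for Vcan. In scrambled trained against naive libraries the ranges were -0.206 to 0.09 for Bcas1 and -0.147 to 0.048 for Olig2, and in Rnf20-labelled against naive libraries -0.176 to 0.137 for Bcas1 and -0.099 to 0.043 for Olig2. For the correlations and the other gene lists, recomputed with settings chosen after seeing the data, some of the values are given beside the results. List medians in scrambled trained against naive libraries kept their sign under both other scalings. Without the 4 libraries named above the signs of astrocyte (0.14), neuroblast (-0.06) and striatal (-0.98) medians changed, and without the 3 of lowest choroid plexus score that of newly formed oligodendrocyte genes (0.02). The cause was not tested. No paired analysis was possible because the groups share no replicate number. Counting error was 1.05% to 4.70% of a member's level, so that the spread between libraries, not depth, set the width of the intervals.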

Other observations

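Values of the remaining lists are given for scrambled trained against naive libraries, with edgeR's quasi-likelihood test and 0 members past the adjusted threshold in each. Microglia genes were above 0 in 12 of 14 (median log2 fold change 0.46), astrocyte genes in 5 of 15 (-0.03), and pericyte, fibroblast and other Pdgfra or Cspg4 cell genes in 6 of 16 (-0.08), with the contractile protein gene Tagln at 124 ± 96.7 against 34.2 ± 4.95 CPM and the pericyte gene Rgs5 at 39.2 ± 3.38 against 50.2 ± 3.28 CPM. Pan-neuronal genes were above 0 in 0 of 12 (-0.20), endothelial genes in 0 of 8 (-0.18) and choroid plexus genes in 0 of 11 (-0.92, against -0.19 once the 3 choroid-poor libraries were left out). CA1 neuron genes were above 0 in 4 of 6 (0.04), striatal genes in 7 of 9 (0.27, and -1.06 without scrambled trained replicate 10), and neuroblast and dentate progenitor genes in 4 of 7 (0.23). The 2 genes of smallest p in this last list differed in direction. The intermediate filament gene Nes, which also stands in the reactive glia list, was at 10.2 ± 4.78 against 4.75 ± 0.83 CPM. The neuroblast gene Dcx was at 31.0 ± 3.99 against 34.4 ± 2.38 CPM. Striatal markers summed to 944 CPM in scrambled trained replicate 10, against at most 512 CPM in naive libraries, and without that library the fold change of Bcas1 was -0.206.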
